A study of Mus musculus with 20 samples.

Results

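The genes described here are 4 surfactant protein genes, Sftpc, Sftpd, Sftpa1 and Sftpb, and Scgb1a1, the gene of the airway secretory protein of club cells. They are 5 of the 20886 genes that the array probes name, and they were chosen by their processed signal and detection in the lung samples, so their lung levels are given as a description with no test. RNA came from grafted CD8+ effector T cells in a mouse model of lethal acute graft-versus-host disease, recovered from lung, small intestine, liver and peripheral blood, with 5 one-colour Agilent arrays per site and 20 in all. In all 4 groups the recipients were female m-act OVA mice on a C57Bl/6 background, which carry an ovalbumin transgene under the CAG promoter, aged 8 to 16 weeks. They had received 11 Gy of total body irradiation and a graft of bone marrow and splenocytes from OT-I donors, whose CD8+ T cells carry a receptor for an ovalbumin peptide. On day 4 the cells were recovered by magnetic selection for CD45.1, the allele of the grafted T cells, whereas the recipients and the other graft cells carried CD45.2. Which animals gave which array is not labelled. A p-value here therefore reflects array-to-array spread, which may be technical, and precision is limited by having 5 arrays a site.

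Pulmonary surfactant is a film of lipid and protein that lowers the surface tension of the alveoli. Alveolar type II cells make it: SP-B and SP-C, the products of Sftpb and Sftpc, are hydrophobic proteins of the film, while SP-A and SP-D, the products of Sftpa1 and Sftpd, are collectins, lectins that bind microbes and help macrophages to take them up. Scgb1a1 is a secreted product of club cells of the bronchioles. T cells are not known as a source of these transcripts.

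The gene table of assembly GRCm38.p6 places Sftpa1 and Sftpd close together on chromosome 14, with Mbl1, another collectin gene, between them. RefSeq promoter sequences of that build, 250 bases before to 50 after the transcription start, were matched for 2 of the 5 genes. Over the lung arrays Sftpa1 tracked the other surfactant genes, while the 2 Sftpb probes disagreed. The brightest Sftpb probe did not track them, and the second had lung 2, 4 and 1 highest, in the same order as they had. No contrast between the 2 promoters is drawn from this. Capitals mark matches, searched on both strands after the sequences had been read, to the TATA box letters TATAA, to CTCAAG as found in sites of NKX2-1, to TNAAGTG as found in sites of other NKX2 factors, and to TGTTTNC as found in forkhead sites.
Sftpa1, chr14:41131538-41131837, plus strand: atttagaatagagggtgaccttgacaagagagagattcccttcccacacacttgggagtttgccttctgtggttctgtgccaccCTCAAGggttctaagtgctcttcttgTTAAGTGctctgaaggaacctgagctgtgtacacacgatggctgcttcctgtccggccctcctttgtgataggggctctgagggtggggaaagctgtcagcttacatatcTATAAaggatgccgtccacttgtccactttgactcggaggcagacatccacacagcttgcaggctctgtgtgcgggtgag
Sftpb, chr6:72304360-72304659, plus strand: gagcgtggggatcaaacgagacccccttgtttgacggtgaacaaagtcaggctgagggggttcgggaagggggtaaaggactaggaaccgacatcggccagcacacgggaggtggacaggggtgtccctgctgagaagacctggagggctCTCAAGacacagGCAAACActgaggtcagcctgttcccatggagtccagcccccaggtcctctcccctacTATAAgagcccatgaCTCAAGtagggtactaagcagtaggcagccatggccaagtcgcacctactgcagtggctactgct
Sftpa1 held TATAA at -30 to -26, CTCAAG at -166 to -161 and TTAAGTG at -140 to -134 from the start. Sftpb also held TATAA at -30 to -26, with CTCAAG at -100 to -95 and again at -15 to -10, and the reverse complement of TGTTTNC at -88 to -82. Such letters are common: of 32851 mouse promoters of this length, 24.9% held TATAA, 15.9% CTCAAG, 11.5% TNAAGTG and 20.5% TGTTTNC. A match is a description of the sequence and shows no binding.

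Each value is the log2 processed signal minus that of the array's 75th percentile, so 0 is the level below which 75% of the probes lie, and a probe counts as detected where the scanner software set its well above background flag. The 75th percentile ran from 772 to 2603 signal units per array, and 22.6% to 38.7% of the probes were detected. The CD8 T cell list, with 14 tested genes, averaged 4.20 to 4.85 on the lung arrays, 3.35 to 5.17 in small intestine, 4.87 to 5.14 in liver and 4.61 to 5.15 in blood. Some arrays stood apart. Paneth cell genes, which mark small intestinal crypts, averaged 4.57 over 5 tested genes on the array labelled liver 5 and -2.92 on the array labelled small intestine 5. Counts of called genes are therefore also given without both, while the site means and bounds of the genes described here keep both. The array labelled lung 3 had 1 of 16 alveolar macrophage genes detected, against 13 to 15 on the other 4 lung arrays, so results are given with and without it too.

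Sftpc, which encodes the hydrophobic protein SP-C, was highest in lung. It lay at 4.61, 6.98, -0.16, 5.33 and 4.52 on lung arrays 1 to 5, against -0.69, -0.33, -0.31, -0.40 and -1.48 in small intestine. It lay at -1.11, -1.22, -0.90, -1.78 and -0.78 on the liver arrays and at -1.01, -1.44, -1.71, -1.42 and -0.91 on the blood arrays. Thus 4 of the 5 lung arrays stood far above all others, while lung 3 was only 0.15 above the highest array of another site. The probe was detected on those 4 lung arrays and on none of the 15 arrays of the other sites. The lung mean was 4.25 ± 2.66 (SD, n = 5), and the means were -0.64 ± 0.49 in small intestine, -1.16 ± 0.39 in liver and -1.30 ± 0.33 in blood. Below lung, the neighbouring sites in this order differed by about their SD or less. Because the probe was not well above background elsewhere, the difference is a lower bound: Sftpc was at least 35.6-fold higher in lung than in blood, at least 36.8-fold higher than in liver and at least 29.4-fold higher than in small intestine. Each such bound sets the lung mean against the lowest detected signal of each array of the other site, or the probe's own signal where that is higher. Lung arrays enter it at their measured signal, including lung 3, where Sftpc was not detected. Only the bounds without lung 3 thus rest on detected lung signal alone. Without lung 3 these bounds were 76.5, 79.0 and 63.2, and without lung 2 they were 22.2, 22.9 and 18.3. In these bulk samples more cells of a type and more RNA per cell cannot be told apart.

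The collectin gene Sftpd was also highest in lung, and its brightest probe ran over the lung arrays in the same order as Sftpc. This probe lay at 1.92, 4.55, -0.48, 2.70 and 1.81 on lung arrays 1 to 5. It ran from -2.03 to -0.76 in small intestine, from -1.66 to -0.23 in liver and from -2.27 to -0.65 in blood. Lung 3 was again the low array, and it lay below liver 5, the only array outside lung on which the probe was detected. The lung mean of 2.10 ± 1.81 compares with -1.24 ± 0.50 in small intestine, -1.10 ± 0.56 in liver and -1.67 ± 0.61 in blood (SD, n = 5 each), so the other 3 sites differed by about their spread. Sftpd was at least 8.24-fold higher in lung than in blood and at least 7.51-fold higher than in small intestine, or 12.9-fold and 11.7-fold without lung 3 and 5.39-fold and 4.91-fold without lung 2. Against liver, where 1 array was detected, the log2 difference was 3.20. A second Sftpd probe was detected only on lung 2, at 1.57, and lay between -2.42 and -1.12 on the other lung arrays. Both probes had lung 2 highest.

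Sftpa1, the gene of the collectin SP-A, lay at 0.13, 2.90, -2.09, 0.67 and 0.04 on lung arrays 1 to 5. Elsewhere it ran from -3.88 to -2.30 in small intestine, from -3.13 to -2.60 in liver and from -3.54 to -1.83 in blood. Lung 3 lay below the highest blood array, and the other 4 lung arrays lay above all 15 arrays of the other sites. The lung mean was 0.33 ± 1.78, against -2.76 ± 0.64 in small intestine, -2.90 ± 0.23 in liver and -2.89 ± 0.71 in blood (SD, n = 5 each). The probe was detected on 4 lung arrays and nowhere else, and its lower bounds were 2.42-fold against blood, 2.49-fold against liver and 2.20-fold against small intestine, or 3.68, 3.79 and 3.35 without lung 3 and 1.55, 1.59 and 1.41 without lung 2. Of all 27508 named probes, 13 (0.0473%) were detected on lung 1, 2, 4 and 5 and on no other array, and these included Sftpc and Sftpa1.

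Scgb1a1 had another pattern. The club cell gene lay at 1.56, 3.54, -2.11, -1.24 and -2.64 on lung arrays 1 to 5. It ran from -3.90 to -2.36 in small intestine, from -3.22 to -2.70 in liver and from -3.56 to -1.83 in blood. Only lung 1 and lung 2 were detected. Lung 3 and lung 5 lay within the range of the other sites, so the groups overlap. The array carries this probe on 10 spots, and all 10 were detected on lung 1 and on lung 2, where the SD between spots was 0.11 and 0.04. On lung 4 the 10 spots ran from -2.07 to -0.61 with none detected. The mean of -0.18 ± 2.63 in lung compares with -2.80 ± 0.62 in small intestine, -3.00 ± 0.22 in liver and -2.90 ± 0.74 in blood (SD, n = 5 each). Ratios computed as for the bounds above were 1.70-fold against blood, 1.75-fold against liver and 1.55-fold against small intestine. Here they are not lower bounds, since lung 3, 4 and 5 were not detected and entered at their measured signal. The ratios rested on lung 2: without it the lung mean was -1.11 and no ratio above 1 was left, and without lung 5 they were 2.60, 2.68 and 2.37. A further 6 named probes shared its detection on lung 1 and lung 2 alone.

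The 2 probes of Sftpb, the gene of the hydrophobic protein SP-B, disagreed. The probe that was brightest on average lay at -1.21, -0.86, -0.37, -0.46 and -0.48 on lung arrays 1 to 5. Its means were -0.68 ± 0.36 in lung, -0.90 ± 0.42 in small intestine, -1.17 ± 0.27 in liver and -1.37 ± 0.38 in blood (SD, n = 5 each). These groups overlap, and the probe was detected on lung 2, lung 5 and small intestine 5. The second probe lay at -1.41, 2.10, -2.26, -0.60 and -2.40 on the lung arrays, and between -4.08 and -2.07 on the 15 others. It was detected on lung 2 alone, one of 143 named probes (0.52%) with that pattern. Neither probe was well above background on a blood array, and the ratios to blood, computed as for the bounds above, were only 1.20-fold for the brightest probe and 1.02-fold for the second. The second probe had no ratio above 1 without lung 2 or without lung 4. These ratios are not lower bounds, since both probes were not well above background on most lung arrays. The measured means differed by 0.69 and 2.22 between lung and blood, and the files do not show which of the 2 measures the transcript better.

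**Figure D1:**
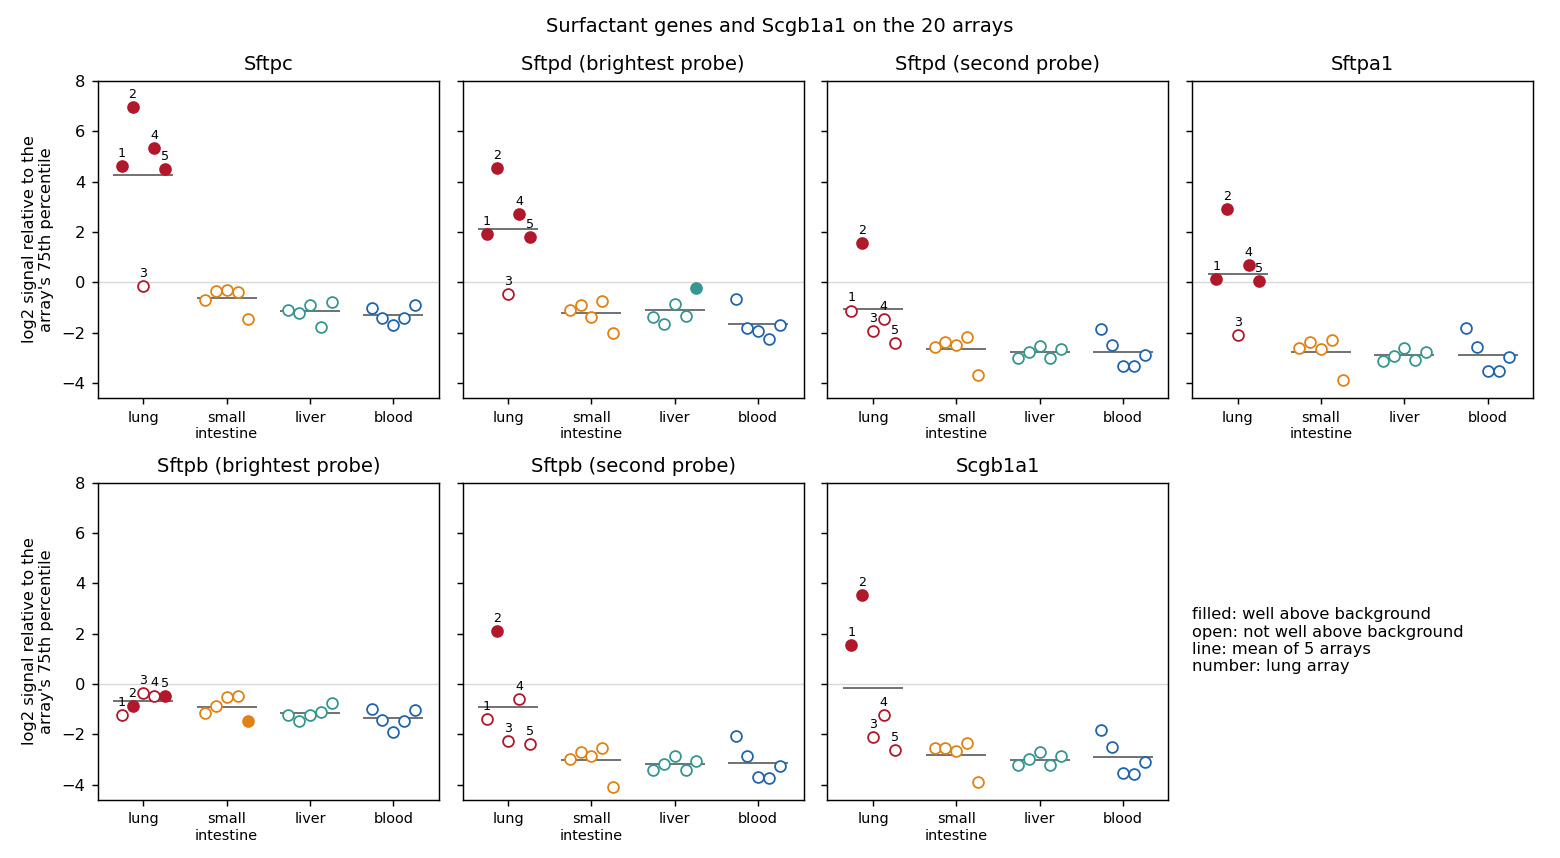
Log2 signal relative to the array's 75th percentile (vertical axis) for each of the 7 probes of the 5 genes, by site, with 1 point per array, filled where well above background, and a line at the mean of 5 arrays. Lung arrays are numbered. Sftpc, the brightest Sftpd probe and Sftpa1 are filled on lung 1, 2, 4 and 5, Scgb1a1 on lung 1 and 2, and the second probes of Sftpd and Sftpb on lung 2 alone.

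Each slide held 1 array of every site, so the difference could be taken within a slide. Lung minus blood for Sftpc was 5.61, 8.42, 1.55, 6.75 and 5.43 on slides 1 to 5. The values were 2.57, 6.37, 1.45, 4.97 and 3.49 for Sftpd, and 1.97, 5.48, 1.42, 4.20 and 3.01 for Sftpa1. Slide 2 gave the largest and slide 3 the smallest difference for all 3 genes. For Scgb1a1 the differences were 3.39, 6.02, 1.42, 2.32 and 0.47. None of these genes was well above background in blood, and probes below background also shift between arrays after scaling. The median of probes that were not well above background differed by -0.88, -0.32, 1.43, 1.46 and 0.44 between lung and blood on slides 1 to 5. On slide 3 the differences of all 5 genes, from 1.42 to 1.55, were close to this 1.43, and on slide 5 the 0.47 of Scgb1a1 was close to 0.44. The size of these differences, whose blood side is signal not well above background, depended on the background correction. With normexp on median signals the measured means of lung and blood differed by 3.93 for Sftpc, 2.14 for Sftpd, 1.62 for Sftpa1 and 1.44 for Scgb1a1, in place of 5.55, 3.77, 3.22 and 2.72.

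**Figure D2:**
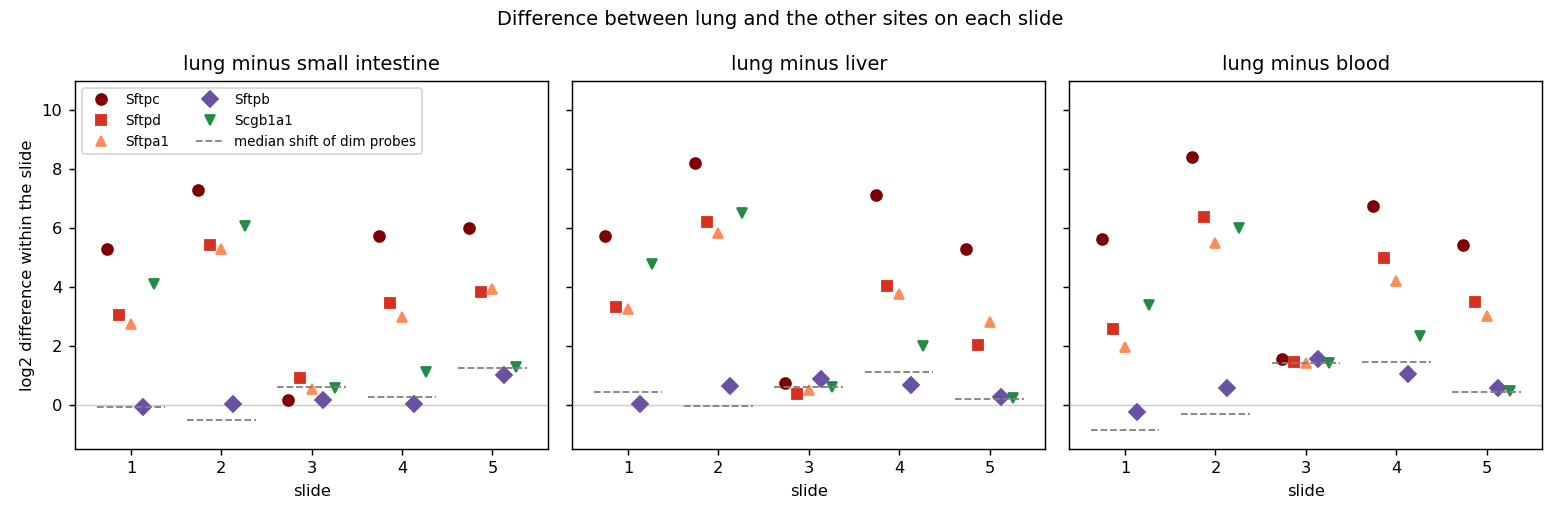
Log2 difference between lung and small intestine, liver or blood (3 panels) within each of the 5 slides (horizontal axis), with 1 symbol per gene, using the brightest probe, and dashed lines at the difference in the median of probes not well above background. Slides 1, 2, 4 and 5 hold Sftpc differences of 5.30 or more, and on slide 3 all 5 genes lie near the dashed lines.

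The same is seen when each value is set against the median of such dim probes on its own array. Sftpa1 lay 2.94, 5.92, -0.01, 2.77 and 2.70 above that median on lung arrays 1 to 5, against 0.01 to 0.13 on the 15 other arrays. Scgb1a1 lay 4.36, 6.55, -0.02, 0.86 and 0.02 above it in lung, against -0.04 to 0.21 elsewhere. Sftpc lay 7.41, 10.00, 1.93, 7.43 and 7.18 above it, against 0.92 to 2.41 elsewhere. On lung 3 these 3 genes were thus at the level they had outside lung. The brightest Sftpb probe lay 1.59, 2.16, 1.72, 1.64 and 2.18 above that median on lung arrays 1 to 5. All of these lay within the 0.95 to 2.41 of the 15 other arrays. Its second probe lay 1.40, 5.11, -0.17, 1.50 and 0.26 above it, against -0.25 to -0.15 elsewhere.

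The 3 detected surfactant genes moved together over the lung arrays. By their brightest probes Sftpc, Sftpd and Sftpa1 all ran in the order lung 2, 4, 1, 5 and 3 from high to low. The second Sftpd probe, detected on lung 2 alone, ran in the order lung 2, 1, 4, 3 and 5. The second Sftpb probe, also detected on lung 2 alone, ran in the order lung 2, 4, 1, 3 and 5. The steps given next are those of the brightest probes. The step from lung 1 to lung 2 was 2.37 for Sftpc, 2.63 for Sftpd and 2.77 for Sftpa1. Lung 4 was above lung 1 by 0.72, 0.79 and 0.54, and lung 5 differed from lung 1 by -0.09, -0.11 and -0.09. Scgb1a1 shared the first step, with 1.98, but differed by -2.80 on lung 4 and by -4.20 on lung 5. Over all 20 arrays, after each gene was centred on its own mean, Sftpd and Sftpa1 differed by a mean of 0.27, the nearest pair for both among 8057 genes. Sftpc differed from Sftpd by 0.78 and from Sftpa1 by 0.84, where the median over all genes was 2.14. In nearness to Sftpc, Sftpd ranked 9 and Sftpa1 ranked 11 among all genes tested. Sftpc in turn ranked 16 for Sftpd and 24 for Sftpa1. These distances describe 20 arrays, of which 4 or 5 carry the pattern.

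By this measure the 8 genes nearest to Sftpc, apart from the genes described here, were Atp6v0d2, a proton pump subunit (0.61), the keratin Krt79 (0.66), the lipid droplet protein Cidec (0.67), the fatty acid binding protein Fabp1 (0.67), lipoprotein lipase Lpl (0.68), the carbonyl reductase Cbr2 (0.71), the formyl peptide receptor Fpr2 (0.71) and Ms4a8a (0.71). Nearest to Sftpd were Lpl (0.52), the transporter Flvcr2 (0.56), Cidec (0.56) and Tlr2 (0.60), and nearest to Sftpa1 were Lpl (0.42), Cidec (0.46), Flvcr2 (0.48) and the caveolar protein Cavin2 (0.55). Several of these are known in alveolar macrophages, but they ran in another order in lung. Krt79 lay at 3.60, 3.12, -2.12, 5.89 and 4.82 on lung arrays 1 to 5, so that lung 4 was highest. Lung 2 minus lung 4 was 1.65 for Sftpc, 1.84 for Sftpd, 2.23 for Sftpa1, 4.78 for Scgb1a1 and 2.69 for the second Sftpb probe, against -2.77 for Krt79, -3.90 for Atp6v0d2 and -2.24 for Lpl. All 13 tested alveolar macrophage genes were highest on lung 4. Cbr2, known in club cells, had 2.36 and ran over the lung arrays in the same order as Sftpc. However, only 2 of the 5 tested club and goblet cell genes were higher on lung 2 than on lung 4 (median -0.56). The same held for 3 of 10 general epithelium genes (median -0.52), 2 of 4 type I cell genes (-0.05) and 3 of 4 type II cell genes (0.90). Of 7 tested endothelial genes 5 were highest on lung 2 (median of lung 2 minus lung 4 1.57), and the largest difference was 4.46 for Ramp2. Over all 8057 genes the median of lung 2 minus lung 4 was 0.29, and 12.8% were highest on lung 2 against 24.3% on lung 4. Whether other cells in the lung fraction set the surfactant signal was not tested.

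**Figure D3:**
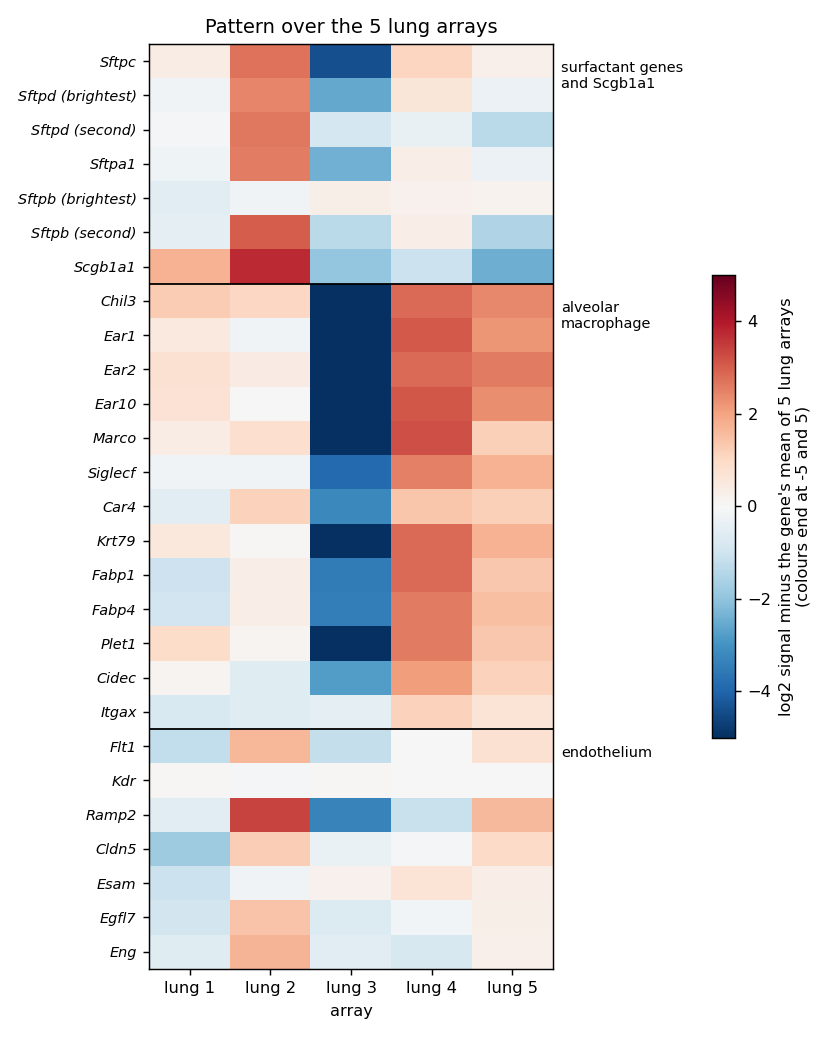
Log2 signal on each of the 5 lung arrays minus the mean of the 5 for that probe (colour, red above and blue below the mean, ending at -5 and 5), for the 7 probes of the 5 genes and the tested alveolar macrophage and endothelial genes. Sftpc, the brightest Sftpd probe and Sftpa1 are reddest on lung 2 and bluest on lung 3, and all 13 alveolar macrophage genes are reddest on lung 4.

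Other genes of lung epithelium were described from 97 genes in 6 lists (type II cells, factors that drive surfactant genes, type I cells, club and goblet cells, ciliated cells and general epithelium, without the 5 genes above), of which 95 had a probe. On the lung arrays 13.7% to 42.1% of the 95 were detected, against 29.3% to 40.8% of all 20886 named genes. On no array were 40 of the 95 detected (42.1%), against 45.7% of all named genes, and 8 (8.42%) were detected in lung only, against 1.40%. Of the 95, 27 were tested. List genes that passed the filter on detection through lung alone had to be higher there, so counts of list genes lean towards lung. Against blood, 66 of 8057 genes (0.819%) passed limma's test at an adjusted p under 0.05, 42 (0.521%) higher and 24 (0.298%) lower in lung, or 107 with the slide as a replicate block. Of the 27 list genes 1 passed, with a median difference of 0.79 against -0.33 over all genes tested. Against liver 23 of 8057 (0.285%) passed, 20 (0.248%) higher and 3 (0.0372%) lower, and 1 of the 27 (medians 0.44 and -0.28). Against small intestine 12 of 8057 (0.149%) passed, 11 (0.137%) higher and 1 (0.0124%) lower. Of the 27 list genes 0 passed in limma, with 5 at an unadjusted p under 0.05 (medians 0.28 and 0.13). Of all 8057 genes 634 had such an unadjusted p. Against blood 16 of the 27 and 2781 of the 8057 had one, and against liver 6 of the 27 and 1259 of the 8057 (limma). All 5 lung values exceeded all 5 of the other site for 80 of 8057 genes (0.993%) against blood, 52 (0.645%) against liver and 53 (0.658%) against small intestine. Sftpc had this separation in all 3 comparisons, Sftpd against blood and small intestine, and Sftpa1 against liver and small intestine, and nothing is read from this, since these genes were chosen for it.

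The list gene that passed was Cbr2, which was detected on 4 lung, 2 small intestine and no liver or blood arrays and so passed the filter through lung alone. Ratios computed as for the bounds above were 7.07-fold against blood and 7.28-fold against liver (adjusted p = 0.0227 and 0.0320, limma). Lung 3, where Cbr2 was not detected, entered them at its measured signal, so they do not rest on detected lung signal alone. The lung values of Cbr2 were 2.71, 5.10, -2.27, 2.74 and 1.11, so it ran in the order lung 2, 4, 1, 5 and 3, as did Sftpc. The call against blood was lost without lung 4, lung 5 or any of blood 3, 4 and 5, and the call against liver without any 1 of the liver arrays or of lung 1, 2, 4 and 5. Against small intestine Cbr2 differed by 3.54 ± 1.01 (SE, adjusted p = 0.17, limma). Type II cell genes had 4 of 18 tested and none passed. Lamp3, a lysosome-related membrane protein, differed by -0.56 ± 0.42 between lung and blood, Abca3, the lipid transporter of surfactant storage, by -0.47 ± 0.47, and Ctsh, a protease that processes SP-B and SP-C, by 5.18 ± 1.50 (SE, adjusted p = 0.305, 0.435 and 0.096, limma). Unlike Sftpc, Ctsh was highest on lung 4, at 5.05. It was also detected on 3 small intestine arrays, and lung minus small intestine was 1.19 ± 1.50 (SE, adjusted p = 0.905, limma). Abca3 and Lamp3 were detected on all 5 arrays of lung and of blood. Nkx2-1, the factor that drives surfactant genes, Slc34a2, a phosphate transporter of type II cells, and the epithelial adhesion molecule Epcam were not detected on any lung array.

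Lung-only detection of the remaining list genes rested on few arrays. Cyp2f2, a club cell cytochrome, was detected on lung 2 alone at 0.90, and Cxcl15, a chemokine of lung epithelium, at -0.03 on lung 2 alone. Clic5, a channel protein of type I cells, lay at -2.84, 2.47, -2.11, -2.09 and 0.95 on lung arrays 1 to 5, and Cyp4b1, another cytochrome, at -0.95, 3.72, -2.41, -2.33 and 1.91. Both were detected on lung 2 and lung 5, unlike Scgb1a1, which was detected on lung 1 and lung 2. Lung 2 was the highest array for 7 of the 8 genes detected in lung only, all but Clic3, a further type I cell gene. Lung 2 also had the most named genes detected of the lung arrays, 40.8%, and 143 named probes were detected on lung 2 alone. The share of all genes detected in lung only that were highest on lung 2 was not computed, so nothing is read from this count.

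**Figure D4:**
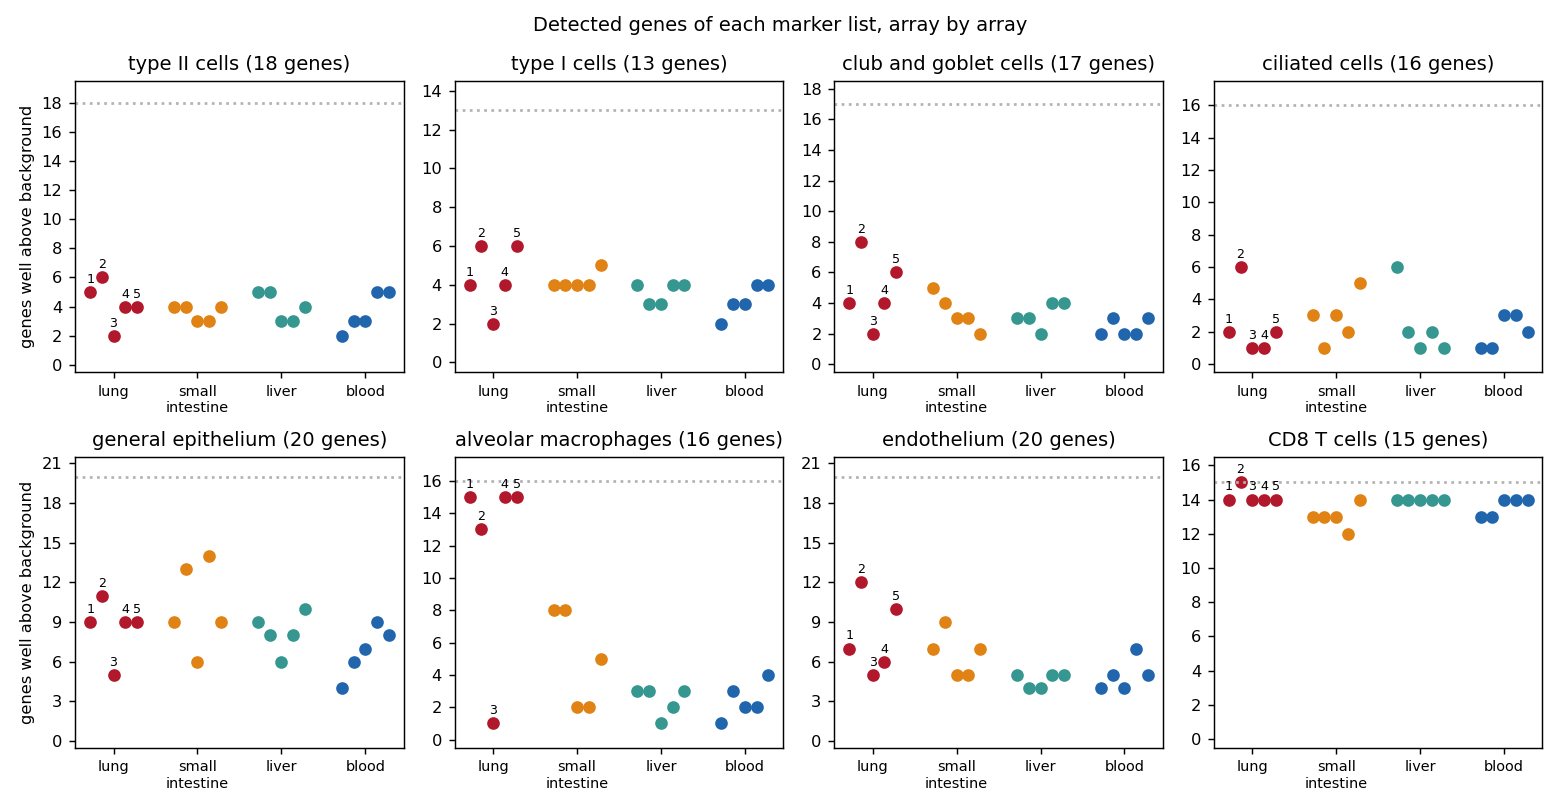
Number of genes well above background (vertical axis) on each array, by site, for 8 marker lists, with 1 point per array and a dotted line at the number of genes with a probe. Club and goblet cell genes reach 8 of 17 on lung 2, and alveolar macrophage genes reach 13 to 15 of 16 on lung 1, 2, 4 and 5 and 1 on lung 3.

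Partners of surfactant in host defence and turnover were described from lists of other collectins with their receptors and of surfactant clearance. Of 6 tested collectin partners 1 was higher in lung than in blood (median 1.99): Tlr2, a receptor that SP-A is known to bind. Its ratio, computed as for the bounds above, was 1.97-fold (adjusted p = 0.0293, limma). Sirpa, an inhibitory receptor for SP-A and SP-D, had a ratio of 5.20-fold to blood, a difference that did not pass the test (adjusted p = 0.0721, limma). Mbl1, the collectin gene between Sftpa1 and Sftpd, was not detected on any array, with -1.75 ± 0.78 in lung and -2.13 ± 1.02 in blood (SD, n = 5 each). Of 7 tested clearance genes 2 were higher in lung than in blood (median 2.53), Lpl and Pparg, a nuclear receptor of lipid handling. Their ratios were 2.89-fold and 2.21-fold (adjusted p = 0.00565 and 0.0456, limma). Tlr2, Sirpa, Lpl and Pparg each passed the filter on detection through lung alone, so their tests lean towards lung. None of them was detected on lung 3, which entered the ratios at its measured signal. The ratios thus do not rest on detected lung signal alone. Over all 8057 genes tested 0.521% were called higher in lung than in blood, with a median difference of -0.33. Beside the partner and clearance genes, 8 of 13 tested alveolar macrophage genes were higher in lung than in blood (median 4.34). These 8 also passed the filter through lung alone. The mean level of the 13 ran from -1.77 to 5.31 on lung arrays and from -2.76 to -1.33 on blood arrays. The part of alveolar macrophage genes in the surfactant values was not tested.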

How the data were processed

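Amplified RNA carried Cy3 and was read on 1-colour Agilent arrays, per the labels' protocols. The deposited intensity (processed signal) is background-subtracted and, per the file headers, comes from Feature Extraction 11.0.1.1. Version 10.7 and Partek are given in the submitters' processing notes. The authors' deposited log2 value table, which matches quantile-normalized log2 processed signal and has a column median of 8.05, was used as an alternative. From 43020 spots that are not controls, 24 non-uniform spots were left out and spots of a probe averaged. Of 39429 probes, 27508 were named through RefSeq accessions with a GRCm38.p6 gene table. The brightest probe per gene was used. A gene had to be well above background on 4 or more of the 5 arrays of a site, which left 8057 genes for limma 3.58.1 (R 4.3.3) over all 20 arrays (16 residual degrees of freedom, Benjamini-Hochberg, 0.05). Of the 5 genes, Sftpc, Sftpd and Sftpa1 passed this filter, through lung alone. The fit was tested on simulated data. Same-numbered arrays share a slide, per the file headers, and their mean residual correlation ran from -0.05 to 0.31 per slide. The files hold no mean signal, so normexp used median signals. When an array is left out, the genes tested are those of the fit on 20 arrays. This was chosen after fits filtered again had been seen, and both are given. Genes and lists were chosen with earlier results of these data known. Genes were named as all called list genes (at most 5), else the brightest in lung, plus the 8 or 4 nearest profiles. Other named genes, such as the undetected ones, were chosen after their values were seen.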

Additional observations from a re-analysis of the deposited data

Results flagged for a closer look

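Of 28 groups of 5 arrays (7 probes at 4 sites), 3 had a single array far from the others, meaning that its gap to the nearest array, divided by the range of the group, was above 0.71. Chance gives about 1 such group in 20. In all 3 the array was the one labelled small intestine 5, which was low. The ratio was 0.741 for the second Sftpd probe (-3.70, against -2.56 for the nearest array), 0.785 for Sftpa1 (-3.88, against -2.64) and 0.796 for Scgb1a1 (-3.90, against -2.68). None of these values was well above background, and the median of such dim probes on that array was -3.89.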

How the results depend on the processing

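The blood side of the lung minus blood differences is signal not well above background. Over the settings that can change them (other scalings, normexp, the deposited table, the probe rule, and lung or blood arrays left out) they ran from 3.93 to 6.66 for Sftpc, 2.14 to 4.42 for Sftpd, 1.62 to 3.82 for Sftpa1 and 1.44 to 3.34 for Scgb1a1, each lowest with normexp. The replicate block and leaving out liver or small intestine arrays cannot move them. For Sftpb the main difference was 0.69, and its ratio of 1.20-fold is not a lower bound. Its difference of measured means was 0.30 with normexp, 1.45 with the mean of its probes and 2.22 with the probe of the highest single value. That last alternative was added after the data were seen. Counts of called genes depended strongly on the processing. Lung versus blood (66) gave 26 with quantile normalization and with the deposited table, 40 when scaled on probes detected on all 20 arrays, 32 with median scaling, 1 with detection on 5 of 5 arrays, 107 with the replicate block, 188 without liver 5 and small intestine 5, 23 with only the 2 sites and 181 with lung 3 left out too. Lung versus liver (23) gave 12 with median scaling, 79 with the 3 arrays left out, and 0 in limma with normexp, detection on 5 of 5 arrays and only the 2 sites (1003, 1078 and 1631 at an unadjusted p under 0.05). Lung versus small intestine (12) gave 27 with quantile normalization and the deposited table, 7 with the mean of probes, 191 without liver 5 and small intestine 5, 160 with the 3 arrays left out, and 0 in limma under the same 3 alternatives (425, 536 and 425 unadjusted). For the epithelium lists the call against blood (1) and that against liver (1) were lost (0) with quantile normalization, normexp, detection on 5 of 5 arrays, the deposited table and only the 2 sites, and that against liver with median scaling (0). With the 3 arrays left out the lists gave 4, 3 and 3 calls against blood, liver and small intestine, and 2 against small intestine without liver 5 and small intestine 5. Leaving out each array in turn gave 16 (without blood 3) to 893 (without lung 1) against blood, 5 (without lung 5) to 62 (without lung 3) against liver and 0 (without lung 5, 509 unadjusted) to 118 (without small intestine 5) against small intestine. The lists gave 0 to 3, 0 to 1 and 0 to 2. Filtered again on the arrays kept, the ranges were 0 to 729, 0 to 62 and 0 to 118 for all genes and 0 to 2, 0 to 1 and 0 to 2 for the lists. Sftpb leave-outs ran from 0.55 to 0.82. The causes were not tested. The block changed no other call by over 1.5 times. Probes below background, which include Scgb1a1 on 18 of 20 arrays, give no order among sites.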
